A study of Mus musculus with 4 samples.

Results

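The cells described here were picked out of single-cell data from 4 mouse brains by their reads of 6 genes that mark macrophages and monocytes. The other genes read in them bear out that name better for some cells than for others. Of these cells, 48 had Flt3 without F13a1 and no read of the monocyte genes Chil3 and Mgst1. Other genes of the same monocyte list, namely Lyz2, Cd44, Lgals3 and Itga4, were each read in most of those 48 cells. Chil3 was also missing from most cells with F13a1 and without Flt3. A cell was taken when it had reads of at least 2 of Ccr2, Clec10a, F13a1, Flt3, Kcne3 and Cd163 and no read of Cd3e, Cd79a or Cxcr2, the genes that mark T cells, B cells and neutrophils. The rule was applied to the 13820 cells, of 21172 deposited, that had at least 40 genes with a read and no more reads than an upper limit, the deepest of them at 59271 reads, and it found 117 cells, called marker-positive cells below. They were set against 12795 Trem2-positive cells, which had a read of Trem2 and none of the 6 markers or of the 3 other genes. Because the markers were chosen from measured reads, the levels of these 10 genes carry no test wherever the cell groups they define are compared.

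The study asked what loss of Abi3, which encodes an adaptor protein of the actin regulatory complex, does in a mouse model of amyloid deposition. All 4 mice were male, were 9 months old and carried the 5XFAD transgene, which drives amyloid deposition from human transgenes expressed in neurons. The labels give 5XFAD;Abi3-/- for 2 mice and 5XFAD, with Abi3 intact, for the other 2 (Abi3+/+). In the Abi3-/- line the Abi3 locus is deleted in every cell of the body, so a difference in any cell type need not start in that cell. The 5XFAD parents had a B6SJL background, and the study's methods state that all its analysed mice were heterozygous for a Trem2 variant of the SJL strain. The right hemisphere without cerebellum and olfactory bulb was minced in cold Accutase after perfusion and depleted of myelin, with no sort for any cell type. Reads of a panel of 397 immune genes were counted with 1 library per mouse. Abi3 is not in the panel, so its loss was not measurable here and the genotypes rest on the labels.

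Besides microglia, the resident macrophages of its parenchyma, the brain holds macrophages at its borders, along vessels and in the meninges, and receives monocytes from the blood. Ccr2 is the chemokine receptor with which monocytes leave the marrow and enter tissue, and Cd163 is the haemoglobin scavenger receptor of many border macrophages. Clec10a is a galactose-binding lectin of macrophages and dendritic cells, F13a1 a transglutaminase subunit of monocytes and macrophages, Flt3 the cytokine receptor on which dendritic cells depend, and Kcne3 a potassium channel subunit. Amyloid deposition draws microglia to plaques, while the part that blood-derived cells play beside them is debated.

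The libraries of the Abi3-/- mice kept 2321 and 4499 cells, and those of the Abi3+/+ mice 3796 and 3204, with mouse 1 given first here and in all lists that follow. The marker-positive cells were deeper than the Trem2-positive cells, at a median of 40582 against 21312 reads per cell. Their medians were 45383 and 41701.5 reads in the Abi3-/- mice, with 34218 and 38456 in the Abi3+/+ mice, and 61 of the 117 cells had over 40000 reads. Barcodes shared between libraries numbered 17 to 42 per pair of libraries over all deposited cells and 0 among the marker-positive cells. No doublet caller was run, and the part of cell doublets in the depth of these cells was not tested. All levels below are reads of a gene per 10000 panel reads, summed over the cells of a mouse, and compare 1 gene between groups, because the amplicons of a targeted panel differ in yield from gene to gene.

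Most markers of the cell types that the rule bars had few reads or none. Of the 8 genes of a T cell list, 5 had no read in any marker-positive cell, and the list summed to between 0 and 1.90 reads per 10000 in the 4 mice, against 1021 to 1200 in 256 Cd3e-positive cells. Neutrophil list genes summed to between 0 and 4.01, against 4984 to 5840 in 121 Cxcr2-positive cells, with S100a9 and Trem1 at 0. Outside that list, Elane, the elastase of neutrophil precursors, was read in 5 cells, at 1.61 and 14.2 in the Abi3-/- mice, with 0 in both Abi3+/+ mice. The B cell list summed to 2.18 to 3.41, all of it from Cd79b and Igkc, with Ms4a1 and Pax5 at 0. Outside that list, the immunoglobulin gene Iglc3 was read in 5 cells, at 0 and 0.121 reads per 10000 in the Abi3-/- mice, with 6.64 and 12.2 in the Abi3+/+ mice, and Mzb1 of plasma cells in 7 cells, all of the Abi3+/+ mice. Ighm was read in 78.6% of marker-positive and 75.04% of Trem2-positive cells. A mast cell list of 3 genes summed to at most 5.17. The 3 genes of a glia list gave 7.73 to 19.1, above the 4.61 to 6.56 of the Trem2-positive cells and below the 22.2 to 38.6 of the Cd3e-positive cells. Microglial genes were low but present. The 10 genes of the microglia list summed to 449 and 174 in the Abi3-/- mice, with 322 and 407 in the Abi3+/+ mice. The same list, which holds the Trem2 that chose those cells, gave 1753 to 2673 in the Trem2-positive cells and 159 to 290 in the Cd3e-positive cells, whose median depth was 16871.5 reads. In 47 of the 117 cells none of C1qa, C1qb, Trem2 and Cx3cr1 had a read, and in 19 cells all 4 had one.

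Ccr2 was the marker most often read. It had a read in 85 of the 117 cells, Clec10a in 71, Flt3 in 58, F13a1 in 54, Cd163 in 40 and Kcne3 in 34. Exactly 2 markers were read in 43 cells, 3 markers in 48, 4 markers in 19, 5 markers in 6 and all 6 in 1. Pairs of markers were uneven. Ccr2 was read together with Clec10a in 49 cells and with Flt3 in 47, whereas F13a1 and Flt3 met in 10 cells and Ccr2 and Cd163 in 15. Of the 34 cells with Kcne3, 32 also had Ccr2. Where a marker was read it was read many times: the 85 cells with Ccr2 had from 13 to 1757 reads of it, with a median of 396.

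**Figure D1:**
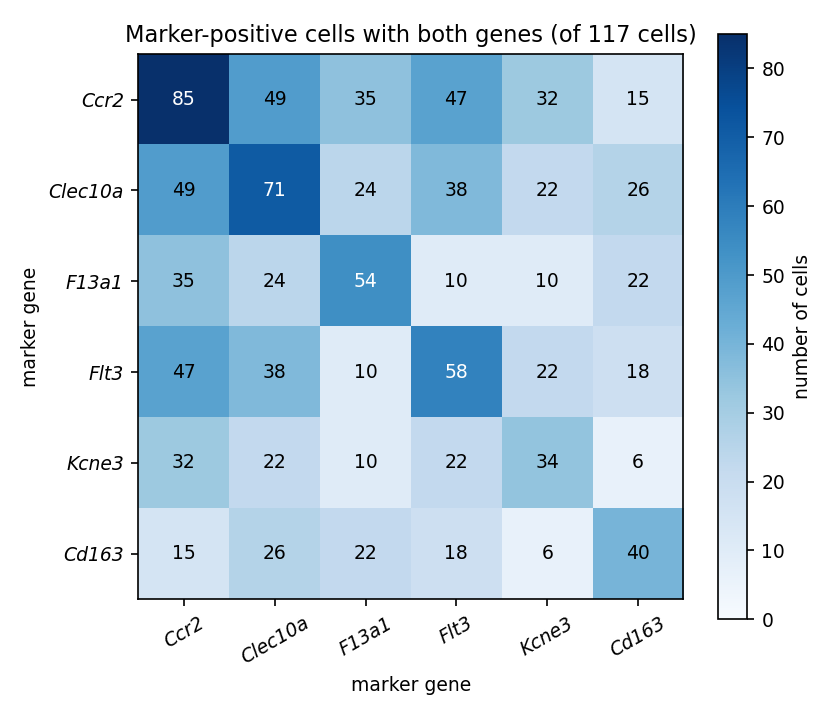
Number of marker-positive cells, of 117, with a read of both the row gene and the column gene; the diagonal gives all cells with a read of that gene. F13a1 and Flt3 share 10 cells, whereas each of them shares at least 35 with Ccr2.

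Cells just inside and just outside the rule differed in their other genes. The 273 cells with a read of exactly 1 marker, again without the 3 barred genes, lay just outside the rule, and 223 of them (81.7%) had Ccr2 as that marker. Their Ccr2 reads ranged from 10 to 1174 with a median of 56 in the cells that had them, below the 396 of the marker-positive cells. C1qa was read in 89% of the 1-marker cells, in 56% of the cells with exactly 2 markers and in 27% of the cells with 3 or more. H2-Aa went the other way, at 16%, 65% and 73%. The median depth was 23275, 39032 and 41528.5 reads in these 3 groups of cells.

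The share of marker-positive cells was alike in the 4 mice under the rule used here. They made up 0.819% (95% exact binomial interval 0.494 to 1.28) and 0.934% (0.674 to 1.26) of kept cells in the Abi3-/- mice, which are 19 and 42 cells. In the Abi3+/+ mice they made up 0.711% (0.469 to 1.03) and 0.905% (0.607 to 1.30), which are 27 and 29 cells. The genotype means were 0.876% ± 0.081 (SD, n = 2) and 0.808% ± 0.137 (SD, n = 2), and the ranges of the genotypes overlapped. The difference of 0.068 percentage points had p = 0.667 in a two-sided exact permutation test over mice, a test that cannot go below 0.33 with 2 mice against 2. Among cells of at most 40000 reads the direction turned, to 0.332% in the Abi3-/- and 0.528% in the Abi3+/+ mice on average, a difference of -0.197 points. When 3 markers were asked for, the difference was 0.185 points. The shares were then 0.517% and 0.711% in the Abi3-/- mice, with 0.4215% and 0.437% in the Abi3+/+ mice, and did not overlap. Intervals cover counting error only.

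By reads of Ccr2 and Cd163, more of the group was Ccr2-positive and less of it Cd163-positive in the Abi3-/- mice. Since both genes belong to the rule, this split is a description with no test. Cells with Ccr2 and without Cd163 were 84.2% and 73.8% of the marker-positive cells in the Abi3-/- mice, with 44.4% and 37.9% in the Abi3+/+ mice. The means of 79.01% ± 7.36 (SD, n = 2) and 41.2% ± 4.61 (SD, n = 2) were 37.8 percentage points apart, with no overlap of the genotypes. Of all kept cells, this class was 0.689% and 0.689% in the Abi3-/- mice, with 0.316% and 0.343% in the Abi3+/+ mice. Just outside the rule the direction was the reverse. Cells with Ccr2 as their only marker were a lower share of kept cells in both Abi3-/- mice than in either Abi3+/+ mouse. They numbered 34 of 2321 and 53 of 4499 kept cells in the Abi3-/- mice, with 87 of 3796 and 49 of 3204 in the Abi3+/+ mice, a difference that was not tested. Cells with Cd163 and without Ccr2 were 0.0862% and 0.111% of kept cells in the Abi3-/- mice, with 0.158% and 0.375% in the Abi3+/+ mice, from 2, 5, 6 and 12 cells. The Ccr2 class was also deeper, at a median of 45944 reads against 21129 for the Cd163 class. Among cells of at most 40000 reads the difference between the genotypes was 33.4 points, and after thinning every cell to 10000 reads it was 38.2 points.

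The other markers were spread less evenly over mice. F13a1 was read in 47.4% and 59.5% of the marker-positive cells of the Abi3-/- mice and in 29.6% and 41.4% of those of the Abi3+/+ mice. Flt3 was read in 47.4% and 40.5% against 70.4% and 44.8%, and Clec10a in 47.4% and 61.9% against 59.3% and 68.97%. Kcne3 was at 3.45% in Abi3+/+ mouse 2, where 1 of 29 cells had it, and was read in 26.3%, 45.2% and 33.3% of the cells of the other mice. For F13a1 the genotypes did not overlap, nor for Ccr2 and Cd163, whereas for Flt3, Clec10a and Kcne3 they did.

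**Figure D2:**
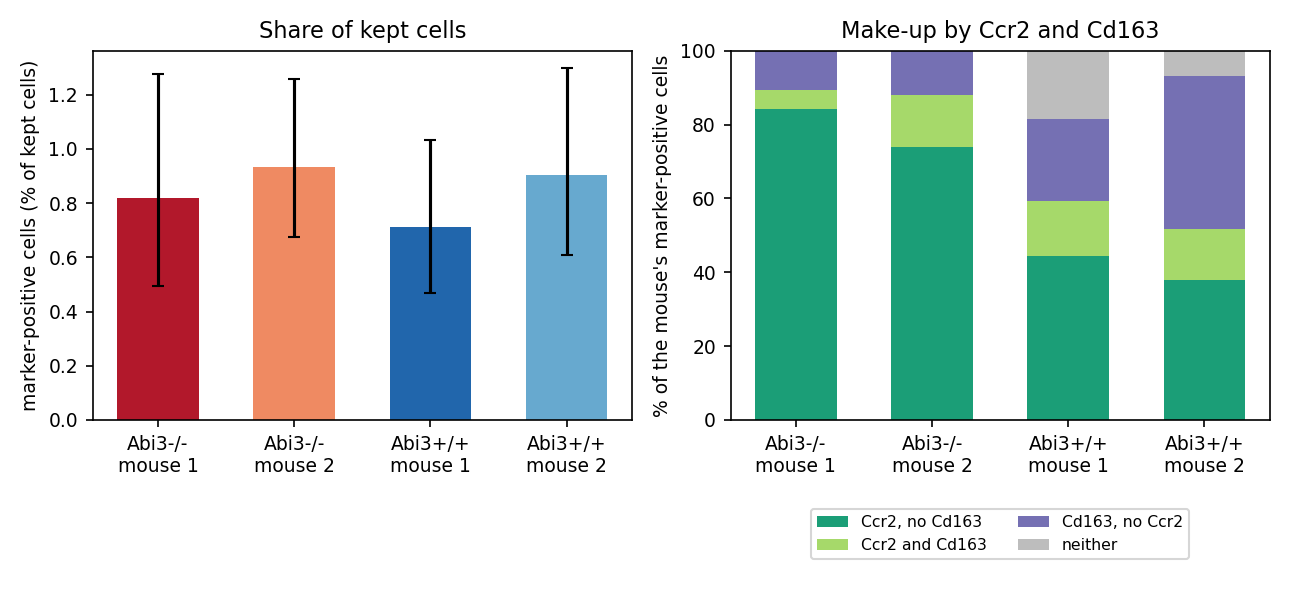
Left, marker-positive cells as a percent of the kept cells of each mouse, with 95% exact binomial intervals. Right, the marker-positive cells of each mouse split by reads of Ccr2 and Cd163, in percent; the class with Ccr2 and without Cd163 is above 70% in both Abi3-/- mice and under 45% in both Abi3+/+ mice.

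Set against Trem2-positive cells of the same mice, the marker-positive cells carried the genes of antigen presentation by MHC class II and of blood monocytes, and little of the microglial programme. With edgeR's quasi-likelihood test on reads summed per mouse, the mouse as a block and Benjamini-Hochberg adjustment, 55 of the 289 genes tested (19%) were higher in the marker-positive cells and 72 (24.9%) were lower at an adjusted p under 0.05. All 6 genes of the MHC class II list and 9 of the 12 of the monocyte list were among the higher ones, and all 9 tested genes of the microglia list were among the lower ones. The median log2 fold change was 7.03 for the class II list, 4.82 for the monocyte list and -2.99 for the microglia list, against -0.88 over all genes tested. That overall median moves with the scaling, to -0.58 without TMM, -0.39 with DESeq2 and 0.04 on mean log-normalized expression, and the share of higher genes among those called was 43.3%, 50%, 47.4% and 49.1% in the same order, starting from the TMM scaling.

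MHC class II molecules present peptides to CD4 T cells and are made in quantity by dendritic cells and activated macrophages. H2-Aa, the alpha chain of I-A, stood at 1966 and 1176 reads per 10000 in the Abi3-/- mice, with 1830.0 and 1266 in the Abi3+/+ mice. In Trem2-positive cells its levels were 13.9, 1.77, 2.87 and 2.11, so that the 2 kinds of cells were far apart in every mouse. The log2 difference was 8.49 (SE 0.57, adjusted p = 2.3e-04, edgeR), and 70.1% of marker-positive against 3.42% of Trem2-positive cells had a read. Thinned to 10000 reads per cell the shares were 71.7% and 3.49%, with 113 marker-positive and 12361 Trem2-positive cells deep enough. As a measure of free RNA, 1 of the 256 Cd3e-positive cells (0.391%, median depth 16871.5 reads) had a read of H2-Aa.

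H2-Eb1, the beta chain of I-E, followed at 1023 and 707 in the Abi3-/- mice, with 1072 and 684 in the Abi3+/+ mice, against 5.81, 0.849, 1.33 and 1.01 (log2 difference 8.77, SE 0.55, adjusted p = 2.3e-04, edgeR). Cd74, the invariant chain that guards the peptide groove, stood at 780.2, 588, 678 and 410.1 against 12.4, 8.28, 3.71 and 2.21 (6.49, SE 0.42). H2-Ab1, the beta chain of I-A, differed by 7.58 (SE 0.46) on the same scale. In none of the 4 mice did the levels of these chains overlap between the 2 kinds of cells. Smaller differences were found for H2-DMb2 (3.65, SE 0.31) and H2-DMa (1.39, SE 0.21), the chains of the peptide exchange factor, of which H2-DMa was also read in 70.5% of Trem2-positive cells. The call of H2-DMb2 was lost among cells of at most 40000 reads (adjusted p = 0.61).

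Since the class II genes moved together, the 250 bases before 3 of their starts are shown here from RefSeq on build GRCm38.p6. Capitals mark ATTGG or its reverse complement CCAAT, the core of the Y box of class II promoters, and TGATG or its reverse complement CATCA, letters that the X box upstream of it holds in some class II genes; neighbouring TGATG matches may overlap. The stretches are chr17:34287824-34288073 on the minus strand for H2-Aa, chr17:34305617-34305866 on the plus strand for H2-Eb1 and chr17:34144999-34145248 on the plus strand for H2-DMb2.
H2-Aa: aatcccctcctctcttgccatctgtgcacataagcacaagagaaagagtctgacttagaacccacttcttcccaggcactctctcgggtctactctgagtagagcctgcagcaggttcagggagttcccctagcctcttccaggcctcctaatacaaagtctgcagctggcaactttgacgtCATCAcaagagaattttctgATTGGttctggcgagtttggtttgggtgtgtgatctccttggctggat
H2-Eb1: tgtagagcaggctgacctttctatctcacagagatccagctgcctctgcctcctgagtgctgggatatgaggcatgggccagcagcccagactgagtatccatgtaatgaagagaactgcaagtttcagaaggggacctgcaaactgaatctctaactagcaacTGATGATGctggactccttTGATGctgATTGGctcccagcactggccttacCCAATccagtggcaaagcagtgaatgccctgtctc
H2-DMb2: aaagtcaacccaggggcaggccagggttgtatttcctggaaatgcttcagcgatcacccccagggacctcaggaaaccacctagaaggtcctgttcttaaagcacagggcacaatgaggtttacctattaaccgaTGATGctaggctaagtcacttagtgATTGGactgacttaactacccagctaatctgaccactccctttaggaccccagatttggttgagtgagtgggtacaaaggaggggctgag

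The ATTGG match begins 48 bases before the start in H2-Aa and 90 bases before it in H2-DMb2, each with a TGATG match 20 to 25 bases farther upstream, at 68 and 115 bases. In H2-Eb1 an ATTGG match begins at 59 bases and the nearest TGATG match at 67, and an overlapping pair of TGATG matches begins at 86 and 83. Of 5 class II genes looked up, 4 were in the table, with 5 promoters, and 4 of the 5 held both motifs. H2-DMa, not printed, has a pair of promoters, of which the first held neither motif and the second held ATTGG at 198 bases and TGATG at 142, the reverse of the order in the others. Among all 32851 promoters of the table, 33.9% held the first motif on either strand, 34.5% the second and 11.7% both. A match of 5 letters is a description of the sequence and was not set against any binding data.

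Monocyte genes set the marker-positive cells apart in every mouse, at levels that varied more than those of class II. Fn1, which encodes fibronectin and is high in classical monocytes, stood at 25.4 and 242 in the Abi3-/- mice, with 35.04 and 84.5 in the Abi3+/+ mice, against 0.0673 to 0.226 in Trem2-positive cells (log2 difference 8.54, SE 0.54, adjusted p = 2.3e-04, edgeR). Chil3, a chitinase-like protein of classical monocytes, ranged from 8.64 in Abi3-/- mouse 1 to 262 in Abi3-/- mouse 2, with 23.03 and 54.9 in the Abi3+/+ mice. It was read in 22 of the 117 cells and in 0.164% of Trem2-positive cells (11.60, SE 1.19, adjusted p = 0.001, edgeR). The call of Chil3 was lost among cells with 3 markers (adjusted p = 0.071) and on mean log-normalized expression with limma (0.17).

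Lyz2, the lysozyme of monocytes and macrophages, took 652 and 2190.4 reads per 10000 in the Abi3-/- mice, with 689 and 1786 in the Abi3+/+ mice, against 66.05 to 122 in Trem2-positive cells (3.24, SE 0.36, adjusted p = 0.0013, edgeR). Mouse 2 of each genotype was high for Fn1, Chil3 and Lyz2, and mouse 1 of each was low. Itga4, an integrin chain with which leukocytes bind the vessel wall, was read in 70.9% of marker-positive and 1.17% of Trem2-positive cells (6.50, SE 0.46). Ifitm3 (4.55, SE 0.23), Lgals3 (4.67, SE 0.21), Cd44 (4.98, SE 0.39) and Mgst1 (5.58, SE 0.69) of the monocyte list were also called higher. Itgam, the integrin CD11b that microglia share, was lower (-1.82), and Il1b and Thbs1 did not pass the test. Several of these genes belong to other blood cells too. Cxcr2-positive cells had reads of Cd44 in 72.7% and Mgst1 in 52.9%, and Cd3e-positive cells of Itga4 in 66.02%.

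Of the 10 dendritic cell list genes tested, 4 were higher and 2 lower, beside 19% higher and 24.9% lower over all genes tested. Dpp4, the peptidase CD26, was the clearest: 42 marker-positive cells and 0 of 12795 Trem2-positive cells had a read. Its levels were 8.75, 7.44, 10.3 and 5.54 in the marker-positive cells of the 4 mice, and no fold is given, because the Trem2-positive cells had no read of it. Ccl17, a chemokine that draws T cells, was read in 11 marker-positive and 1 Trem2-positive cell, and Bcl11a, a transcription factor of lymphoid and dendritic cell development, in 16.2% against 0.313% (5.52, SE 0.92). Irf4, which acts in the same lineages, was the fourth (3.67, SE 0.88), and its call was lost without Abi3-/- mouse 2 (adjusted p = 0.092) or without Abi3+/+ mouse 2 (0.066), and among cells of at most 40000 reads (0.13). Fscn1 (-6.74) and the costimulatory ligand gene Cd86 (-2.30) were lower than in Trem2-positive cells. Itgax, the integrin CD11c, did not pass the test, with 34.4, 10.7, 38.8 and 12.1 against 12.9, 17.2, 10.1 and 18.8. Ccr7 and Ccl22, which mark mature migratory dendritic cells, were read in 0 of the 117 cells, which allows up to 2.56% of cells with a read and sets no limit on cells that express them.

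Among the 12 largest increases were Klrk1, Tnfrsf18, Cd7, Klra17 and Ccr9, which are grouped here after their values were seen. Klrk1, the NKG2D receptor, was read in 28 marker-positive and 2 Trem2-positive cells, at 6.28, 3.44, 2.91 and 3.39 reads per 10000 in the 4 marker-positive groups. Tnfrsf18 (GITR) was read in 23 against 7 cells, Cd7 in 11 against 3, the Ly49 family gene Klra17 in 12 against 1 and the chemokine receptor gene Ccr9 in 6 against 1. All 5 passed the test, with log2 differences of 8.79 to 13.02, but these folds rest on a few Trem2-positive cells. The call of Ccr9 was lost without Abi3+/+ mouse 1 (adjusted p = 0.084) and that of Tnfrsf18 without Abi3-/- mouse 2 (0.051). Klrk1 was also read in 24.2% and Tnfrsf18 in 42.6% of Cd3e-positive cells, while Trac, Trbc1, Trbc2, Cd3d and Cd3g together were read in 1 marker-positive cell.

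Genes listed for border macrophages gave no common direction. The scavenger receptor gene Cd36 (5.09, SE 0.85) and Cd38 (4.23, SE 0.99) were higher, and Maf was lower (-1.75, SE 0.53), a call kept in 6 of 14 alternatives. The calls of Cd36 and Cd38 were lost when 3 markers were asked for (adjusted p = 0.3 and 0.077), and that of Cd38 also without Abi3+/+ mouse 1 (0.056) or 2 (0.054). Hmox1, haem oxygenase, stood at 7.26, 8.65, 12.2 and 16.9 against 9.15 to 13.3, and Nrp1 at 31.1, 21.2, 22.05 and 59.01 against 26.3 to 31.5. Neither passed the test, nor did Fcna, a ficolin, which was read in 12% of marker-positive and 0.0469% of Trem2-positive cells.

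Microglial genes fell in the marker-positive cells of all 4 mice. C1qa, a chain of complement C1q, stood at 137, 53.6, 89.6 and 210.1 against 761, 576, 684 and 798 in Trem2-positive cells (log2 difference -2.99, SE 0.33, adjusted p = 0.0013, edgeR), and 37.6% against 99.8% of cells had a read. Cx3cr1, the fractalkine receptor, stood at 6.91, 4.33, 5.53 and 4.06 against 37.8 to 75.7 (-3.72, SE 0.23). Selplg (-3.07), Lag3 (-5.81), Entpd1 (-2.45), Bin2 (-1.98), Havcr2 (-2.94), Cmklr1 (-3.25) and C1qb (-2.86) were lower as well. Ctsd, a lysosomal protease, was at 107, 93.4, 121 and 132 against 2326 to 3241 (-4.84, SE 0.32). The cathepsin inhibitor gene Cst7 (-7.33), the chemokine genes Ccl3 (-6.44) and Ccl4 (-7.30) and the tetraspanin gene Cd9 (-4.13), all of the disease-associated microglia list, were lower too, with Cd63. Apoe was not called, and Lilrb4a was the gene of that list that was higher. Of its 10 genes, 5 were thus called lower and 1 higher, beside 24.9% lower and 19% higher over all genes tested. Cd34 (-7.18), Pdcd1 (-6.70) and Il1a (-7.32) were among the 12 largest decreases. Il6 was read in 1380 Trem2-positive and 0 marker-positive cells and Icos in 549 and 0 cells. A count of 0 among the 117 marker-positive cells allows up to 2.56% of cells with a read, so no fold is given. The calls of Il1a (adjusted p up to 0.088) and Pdcd1 (up to 0.095) were lost without Abi3-/- mouse 2, without Abi3+/+ mouse 1 and without Abi3+/+ mouse 2, those of Cd34 (0.052) and Ccl3 (0.053) without Abi3+/+ mouse 1, and that of Cd86 with at most 40000 reads (0.21).

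**Figure D3:**
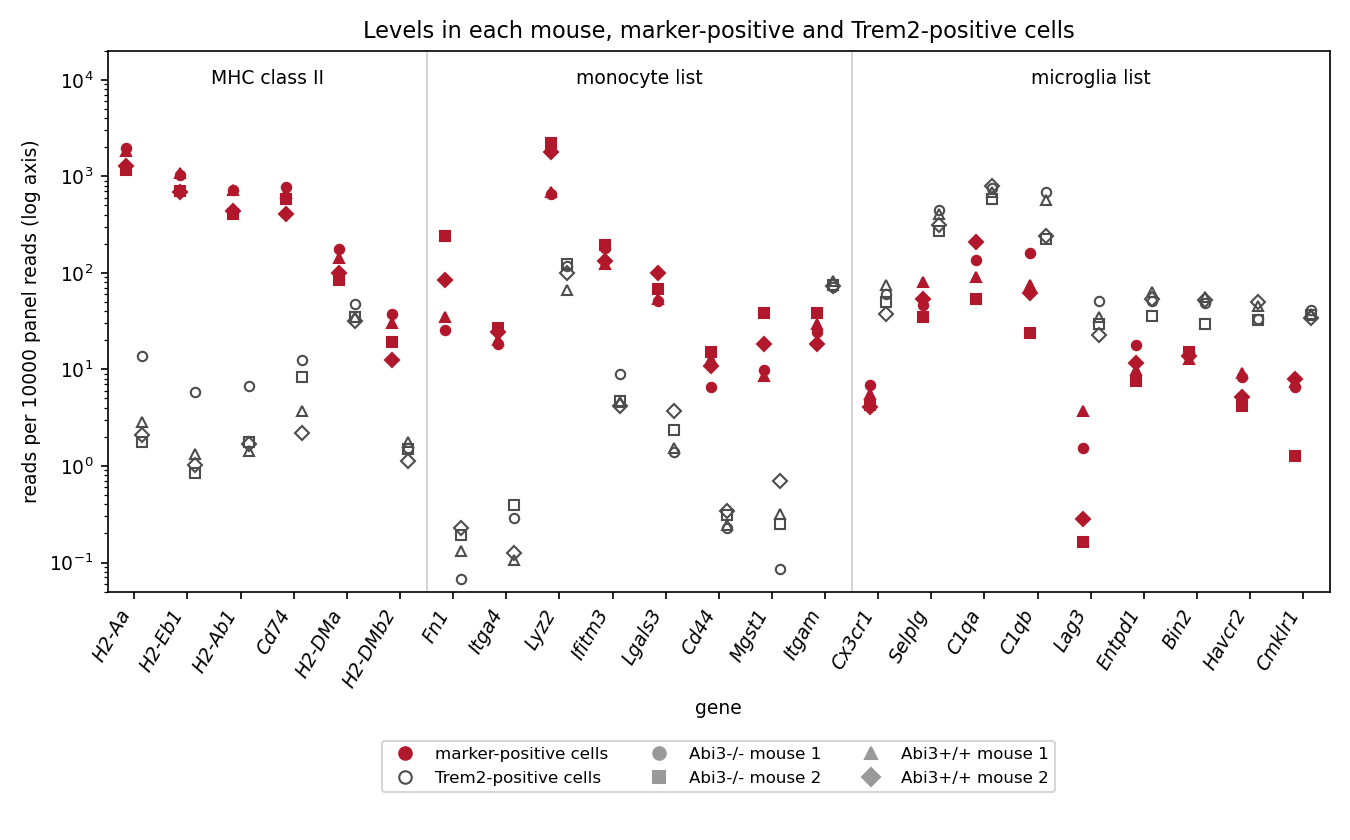
Levels of genes of 3 lists in marker-positive cells (filled) and Trem2-positive cells (open), as reads per 10000 panel reads on a log axis, 1 symbol per mouse. Class II and most monocyte genes lie higher and microglial genes lower in the marker-positive cells of all 4 mice; Itgam is the monocyte list gene drawn that lies lower. Genes at 0 in the Trem2-positive cells of a mouse, Chil3 among them, are not drawn.

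The remaining lists divided as follows, in genes called higher and lower, beside 19% higher and 24.9% lower over all genes. Toll-like receptor genes were 0 and 8 of 11 tested, with a median log2 difference of -1.69, immediate early genes 0 and 4 of 6 (-1.95), and lysosome and iron genes 0 and 4 of 7 (-2.04). Cytokine genes were 2 and 3 of 11, chemokine receptor and adhesion genes 3 and 2 of 8, and interferon genes 3 and 2 of 10. Cell cycle genes were 0 and 0 of 9. Glia list genes were 1 and 0 of 3, the 1 being Mbp of oligodendrocytes, and the 7 tested genes of the T cell, B cell, neutrophil and mast cell lists gave no call. Examples named after their values were seen are the chemokine gene Ccl9, at 71.6, 134, 69.2 and 97.5 against 15.8 to 23.8, and the interferon-induced Ifitm2, at 52.3, 87.1, 44.1 and 109 against 1.43 to 2.75. Jun, of the immediate early list, stood at 18.1, 21.8, 22.1 and 38.1 against 62.003 to 127, and the lipopolysaccharide co-receptor gene Cd14 at 29.7, 26.2, 23.9 and 22.8 against 56.2 to 68.5.

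Class II was not a property of every marker-positive cell. Summed over H2-Aa, H2-Ab1, H2-Eb1 and Cd74, 67 cells had 1000 or more class II reads per 10000 of their own reads, 38 had under 100, and 12 lay between, with a highest value of 7465. The limits of 100 and 1000 were set after the values were seen. The median cell had 5099 and 1296 in the Abi3-/- mice, with 4605 and 1080 in the Abi3+/+ mice, so mouse 1 was high and mouse 2 low in both genotypes. The genotypes overlapped. Cells under 100 numbered 4 of 19 and 19 of 42 in the Abi3-/- mice and 5 of 27 and 10 of 29 in the Abi3+/+ mice.

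**Figure D4:**
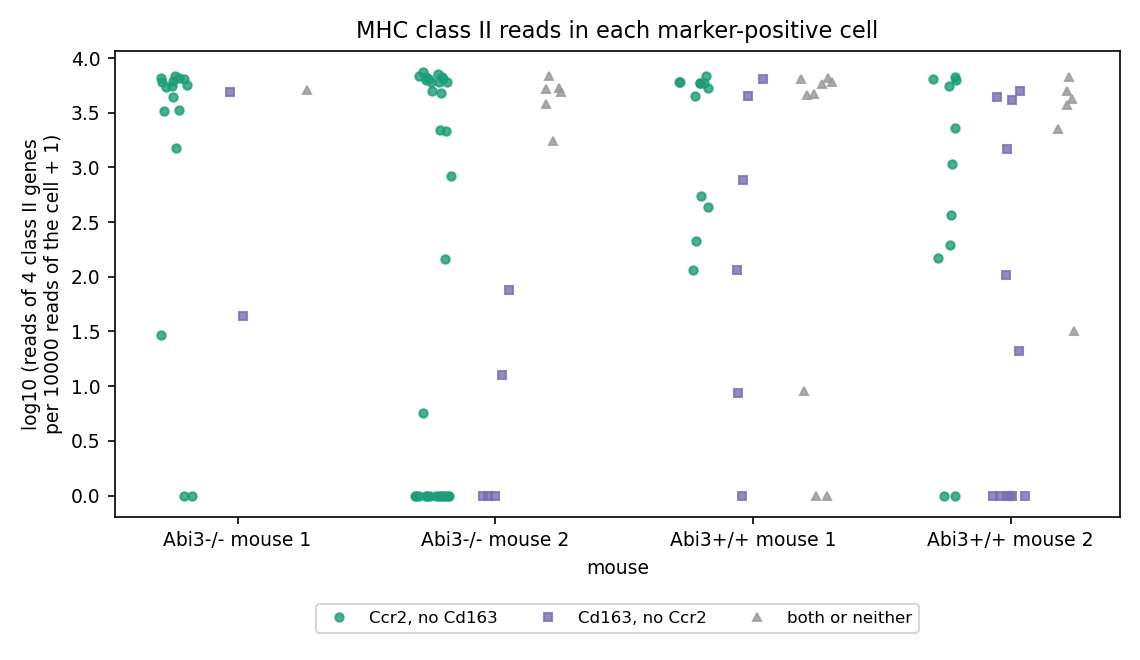
Reads of H2-Aa, H2-Ab1, H2-Eb1 and Cd74 in each marker-positive cell per 10000 reads of the cell, as log10 of the value plus 1, by mouse and by reads of Ccr2 and Cd163; points are spread sideways at random. Most cells lie either above 3 or at or near 0, and the 5 cells of Abi3-/- mouse 2 with Cd163 and without Ccr2 all lie under 2.

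The label of macrophages and monocytes holds for some of these cells better than for others. The cells divided along F13a1 and Flt3, which were seldom read together. Flt3 without F13a1 was found in 48 cells (7, 14, 16 and 11 in the 4 mice) and F13a1 without Flt3 in 44 cells (7, 22, 5 and 10), at median depths of 40211.5 and 37354 reads. These 2 sets were formed after the marker pairs were seen, so what follows is a description with no test. Cells with Flt3 more often had reads of several class II and dendritic cell list genes, and they are named here by their leading genes only. H2-Aa was read in 91.7% of them and in 43.2% of the cells with F13a1, but that difference in shares was found in mouse 2 of each genotype only. In the order of the 4 mice, H2-Aa was read in 6 of 7, 14 of 14, 14 of 16 and 10 of 11 cells with Flt3 and in 6 of 7, 5 of 22, 5 of 5 and 3 of 10 cells with F13a1. Its levels differed in all 4 mice, at 2499, 2563, 2328 and 1877 reads per 10000 in cells with Flt3 against 1221, 199, 357 and 488.5. H2-DMb2 was read in 62.5% and 9.09%, Dpp4 in 64.6% and 2.27% and Itgax in 81.2% and 11.4%. Bcl11a was read in 29.2% and 6.82%. By share of cells, other genes of the dendritic cell list went the other way, with Irf8 in 22 of 48 against 34 of 44 cells and Cd86 in 12 against 15. The level of Irf8 was nevertheless higher in cells with Flt3 in every mouse but Abi3-/- mouse 2. It stood at 81, 28.75, 182 and 307 reads per 10000 in cells with Flt3 against 32.03, 41.6, 31.2 and 24.1. Klrk1 was read in 22 of the 48 cells with Flt3 and in 1 of the 44 with F13a1, Tnfrsf18 in 20 and 2, and Cd7, Klra17 and Ccr9 in 10, 12 and 6 of the cells with Flt3 and in 0 of those with F13a1. Each of these 5 receptor genes was thus read in more cells with Flt3 than with F13a1.

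Cells with F13a1 more often had a read of several monocyte and macrophage genes, though not of all. Lyz2 was read in all 44 of them and in most of the cells with Flt3 (36 of 48), at pooled levels of 2761 and 229 reads per 10000. Mgst1 was read in 56.8% and Chil3 in 38.6% of them and each in 0 of the 48 cells with Flt3, which allows up to 6.25% of cells with a read, and Fn1 was read in 43.2% and 8.33%. Other genes of the monocyte list were read as often or more often in cells with Flt3, with Cd44 in 38 of 48 against 20 of 44 cells, Lgals3 in 34 against 21 and Itga4 in 33 against 28. Several genes of resident macrophages, picked after their values were seen, went the same way, with Trem2 in 88.6% and 20.8%, Apoe in 72.7% and 12.5%, C1qa in 61.4% and 14.6% and Hmox1 in 52.3% and 8.33%. Others of the microglia list did not, with Selplg in 33 of 44 cells with F13a1 and 45 of 48 with Flt3, Entpd1 in 17 and 25 and Havcr2 in 10 and 19. The direction held in each mouse for Lyz2, C1qa and Trem2, with Trem2 in 7 of 7, 18 of 22, 5 of 5 and 9 of 10 cells with F13a1 and in 1 of 7, 2 of 14, 3 of 16 and 4 of 11 cells with Flt3. Chil3 was read in 14 of the 22 F13a1 cells of Abi3-/- mouse 2 and in 3 of the 22 of the other mice together, and Fn1 in 14 and 5. Ccr2 was read in 81.2% of the cells with Flt3 and 61.4% of those with F13a1, the latter by mouse 5 of 7, 18 of 22, 2 of 5 and 2 of 10. Cells with Flt3 and without F13a1 were 36.8% and 33.3% of the marker-positive cells in the Abi3-/- mice, with 59.3% and 37.9% in the Abi3+/+ mice, and those with F13a1 and without Flt3 were 36.8% and 52.4% against 18.5% and 34.5%.

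**Figure D5:**
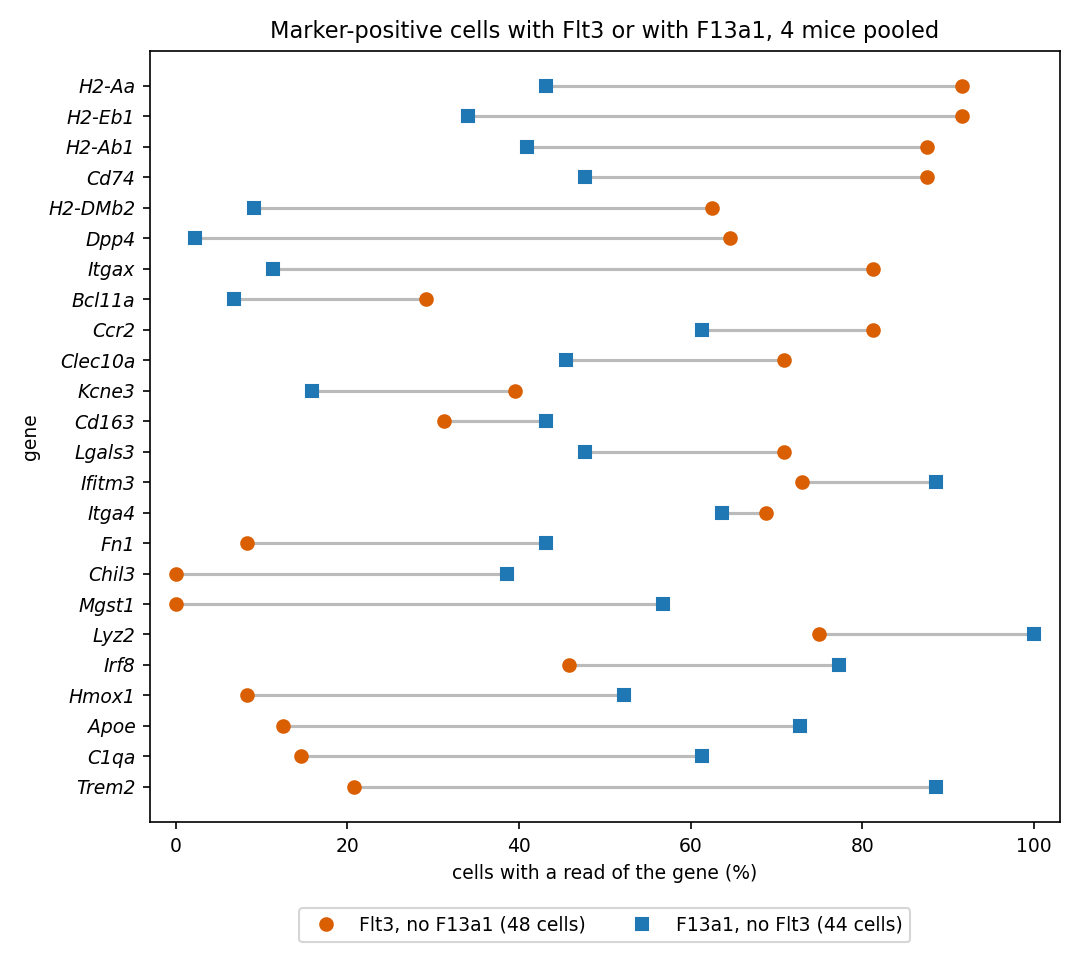
Percent of cells with a read of each gene among marker-positive cells with Flt3 and without F13a1 (circles, 48 cells) and with F13a1 and without Flt3 (squares, 44 cells), pooled over 4 mice; a line joins the 2 values of a gene. Class II genes, Dpp4 and Itgax lie to the right in cells with Flt3, and Mgst1, Apoe, C1qa and Trem2 in cells with F13a1.

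Ccr2-positive and Cd163-positive cells of the group were compared next, leaving out the 15 cells with both and the 7 with neither. Fn1 and Ifitm3 were higher in the 70 cells with Ccr2 alone, of which 30 had a read of Fn1, and Apoe and Adgre1 were higher in the 25 cells with Cd163 alone. In the edgeR test with the mouse as a block, 2 of 200 genes (1%) were higher in the Ccr2 cells and 3 (1.5%) lower. The 2 higher genes were of the monocyte list, of which 10 were tested, and the lower ones were Adgre1, which encodes F4/80, Apoe and the chemokine gene Ccl2. No gene of the class II, microglia, border macrophage or dendritic cell lists was called. Depth goes with this contrast, at 45944 against 21129 reads per cell, and its part in the calls was not tested beyond the settings given here. Among cells of at most 40000 reads, 0 of 154 genes were called with edgeR and 13 had an unadjusted p under 0.05.

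Fn1 was read in 30 of the 70 Ccr2 cells and in 0 of the 25 Cd163 cells, which were less deep and for which this allows up to 12% of cells with a read. It stood at 29.2, 290.0, 20.8 and 133.7 reads per 10000 in the Ccr2 cells of the 4 mice. No fold is given, because the Cd163 cells had no read of it. Ifitm3 stood at 193, 208, 141 and 181 in the Ccr2 cells and 83.8, 52.4, 23.6 and 23.3 in the Cd163 cells (log2 difference 2.74, SE 0.47, adjusted p = 0.029, edgeR). The levels did not overlap. Apoe, the lipid carrier, went the other way, at 19.4, 11.2, 3.26 and 4.63 against 235, 236, 217 and 112 (-4.08, SE 0.64, adjusted p = 0.029, edgeR), and so did Adgre1, at 15.2, 16.7, 10.1 and 23.5 against 137, 224, 79.6 and 186 (-2.67, SE 0.40, adjusted p = 0.029, edgeR). Ccl2 rests on 2 and 3 cells.

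These calls were not stable, and they disappear without Abi3-/- mouse 1 or without Abi3+/+ mouse 1, where 0 genes were called, and 1 gene was called without Abi3+/+ mouse 2. The median log2 difference over all 200 genes was 1.18 (0.68 without TMM and 0.24 on mean log-normalized expression), and the share of higher genes among those called went from 40% to 0% without TMM, to 71.7% with DESeq2 and to 57.5% with limma. C1qa stood at 79.5, 13.5, 27.3 and 6.05 in the Ccr2 cells against 566, 739, 346 and 614 in the Cd163 cells (-4.17, SE 0.91, adjusted p = 0.075, edgeR) and C1qb at 111, 4.07, 29.6 and 1.89 against 524, 361, 257 and 184 (-4.09, SE 1.05, adjusted p = 0.10). Both were lower in the Ccr2 cells of every mouse without passing the threshold. The microglia list summed to 349, 99.8, 188 and 110.2 in the Ccr2 cells, against 215.5, 289.7, 244.9 and 158.6 in the Cd3e-positive cells of the same mice, and to 1191, 1489, 818 and 1014 in the Cd163 cells. Chil3 was read in 21 Ccr2 and 0 Cd163 cells and Lgals3 in 59 of 70 and 2 of 25.

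No class II gene was called between Ccr2 and Cd163 cells, although H2-Aa was lower in the Cd163 cells of each mouse. It stood at 2043, 1081, 1927 and 1198 in the Ccr2 cells and at 1185, 0, 1299 and 822 in the Cd163 cells (2.09, SE 2.04, adjusted p = 0.59, edgeR; 0.013 on mean log-normalized expression with limma), and Cd74 differed by 2.11 (SE 1.19, adjusted p = 0.40). Abi3-/- mouse 2 stood apart, with no read of H2-Aa in its 5 Cd163 cells, while 12 of the 20 Cd163 cells of the other mice had one. Without that mouse the difference of H2-Aa was 1.09 (adjusted p = 0.099). Among the 25 Cd163 cells, the 12 with H2-Aa and the 13 without it were alike in Apoe (83.3% and 84.6% of cells), C1qa (83.3% and 84.6%), Nrp1 (91.7% and 92.3%) and Fcna (41.7% and 46.2%). These genes are examples, and likeness in other genes was not tested. The sets differed in median depth, at 31629 and 16591 reads, and in mice, with 2, 0, 5 and 5 cells against 0, 5, 1 and 7. The border macrophage list summed to 161, 327, 106 and 259 reads per 10000 in the Cd163 cells and to 45.5, 25.8, 44.9 and 35.6 in the Ccr2 cells. No gene of that list passed the test.

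Within the marker-positive cells, no gene was called between the genotypes. With edgeR's quasi-likelihood test 0 of 261 genes (0%) had an adjusted p under 0.05, 14 had an unadjusted p under 0.05, DESeq2 called 5 (Ccl5, Elane, Top2a, Iglc3 and Irf8) and limma 0. The 5 genes with the lowest p were Ccl5, Top2a, Elane, Irf8 and Egr1, and the first 3 of these rest on reads in 2, 6 and 5 cells. Irf8, a transcription factor of monocyte and dendritic cell development, stood at 48.7 and 32.9 reads per 10000 in the Abi3-/- mice, with 115 and 131 in the Abi3+/+ mice, with no overlap (log2 difference -1.39, SE 0.32, adjusted p = 0.65, edgeR). It was called by DESeq2 (adjusted p = 0.016) and by no other alternative, where adjusted p ran up to 1.00. In Trem2-positive cells of the same mice Irf8 stood at 81.7 and 83.3 against 91.4 and 86.7. Egr1, an immediate early gene, stood at 59.4 and 44.4 against 25.5 and 26.9 (1.19, SE 0.30, adjusted p = 0.65, edgeR). Levels of both Abi3-/- mice lay above those of both Abi3+/+ mice for 32 of the 261 genes (12.3%) and below for 70 (26.8%), so that a lack of overlap is common here.

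Ccr2, which the rule uses in both genotypes alike, stood at 90.8 and 176 in the Abi3-/- mice, with 61.3 and 56.9 in the Abi3+/+ mice. It is given as a description only, because it helped choose the cells. All 6 markers were among the 261 genes tested, and Ccr2 was 1 of the 14 with an unadjusted p under 0.05, without a call. The 6 class II genes together took 4702 and 2985 reads per 10000 in the Abi3-/- mice, with 4470 and 2906 in the Abi3+/+ mice, so that mice of 1 genotype lay farther apart than the genotypes. The 12 monocyte list genes took 987 and 3106 against 1011 and 2267, with the ranges again overlapping. The 10 microglia list genes, given above, and the 6 border macrophage genes, at 54.7 and 36.2 against 49.1 and 101.1, overlapped as well. The 12 dendritic cell list genes did not overlap, at 103.8 and 85.9 in the Abi3-/- mice, with 208.6 and 167.8 in the Abi3+/+ mice. Irf8, given above as a single gene, made up 48.7 and 32.9 of these sums against 115 and 131, and without it the list overlapped. The 9 cell cycle genes did not overlap, at 63.6 and 34.2 against 31.998 and 12.5. Among them Top2a was read in 6 cells and Mki67 in 8, while Pcna was read in 74. The 7 lysosome and iron genes did not overlap, at 631 and 516 against 635 and 739. Neither did the mast cell list (0.389 and 0 against 5.17 and 0.750) or the glia list (7.73 and 15.1 against 19.1 and 17.9). The 6 markers of the rule, at 190.9 and 283.6 against 190.5 and 165.6, did not overlap either. Lack of overlap was thus found in several lists, and no list was tested as a whole. In none of the lists was a gene called in the edgeR test.

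A test of whether the genotypes differed more in marker-positive than in Trem2-positive cells gave the same outcome. Of 289 genes, 0 (0%) passed in edgeR, 12 had an unadjusted p under 0.05, DESeq2 called 9 and limma 0. The lowest p belonged to Mgst1 (difference of the log2 differences 2.45, SE 0.42, adjusted p = 0.76, edgeR). Its levels were 9.88 and 38.8 against 8.48 and 18.3 in the marker-positive cells and 0.0849 and 0.254 against 0.320 and 0.691 in the Trem2-positive cells. Cd74 (-1.34, SE 0.30), Egr1 (1.93, SE 0.50) and Itga4 (-1.45, SE 0.39) followed at the same adjusted p, beside Ccl5 with its 2 cells. On mean log-normalized expression the direction turned for Cd74 (0.058) and Itga4 (0.45). Cd74 stood at 12.4 and 8.28 in the Trem2-positive cells of the Abi3-/- mice against 3.71 and 2.21 in those of the Abi3+/+ mice, while its levels in marker-positive cells overlapped between the genotypes.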

How the data were processed

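Reads of a targeted BD Rhapsody immune panel were measured in cells of 4 mice, 1 library each. Per the labels and the study's methods, the authors ran the vendor's pipeline on build mm10 and deposited, for every cell, read counts of each gene that the vendor's distribution-based step had corrected. Its version is not given in the sources used here. The values are whole reads, not molecules, so amplification adds to their spread. Replicates were not pooled, and no deposited column was left out.

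From these counts, cells were filtered, assigned by the marker rule, and summed per mouse. The members and lists were chosen with earlier results of these data known. Sums were tested in edgeR 4.0.16 (R 4.3.3, TMM, filterByExpr, glmQLFit and glmQLFTest, Benjamini-Hochberg adjustment over all genes tested), with the mouse as a block where cell groups of the same mice were compared. The rule genes were left out of tests between groups they define, and log2 differences come from that fit. The 6 markers stayed in the test between the genotypes within the marker-positive cells. The share of marker-positive cells was compared by exact permutation over mice. The mouse is the replicate, and the mouse numbers do not pair genotypes by any label. For tests between the genotypes, p-values measure the spread between 2 mice per genotype. For tests between cell groups with the mouse as a block, they measure the spread of the within-mouse differences over the 4 mice. Total deposited reads per mouse were 87117727 and 150756771 (Abi3-/-) and 139841135 and 133496510 (Abi3+/+). Levels were computed in Python 3.11.15 with pandas 2.3.3, and tests were checked on simulated counts.

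Named genes were the tested genes of the monocyte, border macrophage, dendritic cell, class II and microglia lists, the 12 largest log2 differences in each direction among called genes, and the 5 lowest p where none passed. Some genes that the rule names are not reported here. Other genes were named after their values were seen. Alternatives were DESeq2 1.42.0, limma 3.58.1 on mean log-normalized expression, no TMM, no filter on low counts or on cells, a limit of 40000 reads, 3 markers, 5 reads of a marker, thinning to 10000 reads, no block, and leaving out each mouse.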

Additional observations from a re-analysis of the deposited data

Results flagged for a closer look

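Cells above the upper read limit are left out of the comparisons of the report and enter only the alternative with no filter on cells, and 42 of these 1678 cells (2.5%) met the marker rule. By mouse the shares were 3.27% of 214 and 2.95% of 475 cells in the Abi3-/- mice, and 1.63% of 491 and 2.61% of 498 in the Abi3+/+ mice. The share among kept cells was 0.847%, and the difference was not tested. What these deep cells are was not tested.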

How the results depend on the processing

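The share of marker-positive cells rests on few cells and moved with depth and with the number of markers. The genotype difference was -0.197 points with at most 40000 reads per cell and 0.185 points when 3 markers were asked for. With 1 mouse left out it ran from -0.0290 without Abi3+/+ mouse 1 to 0.165 without Abi3+/+ mouse 2. The difference in the Ccr2 class was positive throughout, from 26.96 points with no filter on cells to 43.02 points without 1 mouse. Against Trem2-positive cells the 127 calls fell to 73 with at most 40000 reads, of which 72 were also among the 127. Between Ccr2 and Cd163 cells the 5 calls became 1 with 3 markers, 18 with no filter on cells, 0 with at most 40000 reads, 8 after thinning, 53 with DESeq2, 47 with limma, 2 without TMM, 8 with no filter on low counts, 9 with no mouse block, and between 0 and 5 with 1 mouse left out. Between the genotypes DESeq2 called 5 genes, and 9 for the difference between cell groups; the cause was not tested. On mean log-normalized expression the latter difference reversed for Cd74 (0.058) and Itga4 (0.45). With same-numbered mice as a replicate block, 0 genes were called between the genotypes and the Ccr2 class differed by 39.8 and 35.9 points within the pairs. The correlation of same-numbered mice was 0.13 over 220 genes, and no label makes the numbers more than names. Of the values of single named genes under these alternatives, 769 kept their direction and side of the threshold, 59 fell below it and 14 rose above it. Depth limits genes read in a few cells.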

Other observations

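Of 11 tested genes of Toll-like receptors, their adaptors and partners, 8 were called lower in the marker-positive cells, beside 24.9% of all genes tested. Tlr1, Tlr2, Tlr3 and Tlr7, the adaptor gene Ticam1, and Cd14, Ly86 and Ly96, which encode partners of Toll-like receptors and their relatives, were called lower than in Trem2-positive cells, and Tlr4, Tlr9 and Myd88 were not called. Chemokine receptor and adhesion genes went in both directions. Ccr1, Cxcr3 and Cd244 were called higher, with Ccr1 at 15.3, 13.1, 22.9 and 10.9 reads per 10000 in the 4 mice, against 0.860 to 8.16. Icam1, an adhesion ligand of leukocyte integrins, was called lower. These genes were picked after their values were seen.

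Over all genes tested, 19% were called higher and 24.9% lower. Of the 10 tested genes of the interferon list, Ifitm2, Irf7 and Oas2 were called higher and Ifngr1 and Tmem173 lower. Irf7, which drives type I interferon genes, stood at 38.95, 11.5, 31.2 and 7.04 against 1.61 to 3.59. Of the 11 of the cytokine list, Ccl9 and Tnfsf13 (APRIL) were called higher and Tnfsf13b (BAFF) lower, with Tnfsf13 at 10.1, 20.1, 7.53 and 19.4 against 2.14 to 3.58. Mbp, of oligodendrocyte myelin, was read in 52.99% of marker-positive and 18.2% of Trem2-positive cells, and the part of free RNA and depth in this was not tested.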
